A study of Homo sapiens with 6 samples.

Results

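Expressed antisense RNAs are described here in T24, a human cell line derived from a urothelial tumour of the bladder, with and without TGF-β1. They are the genes of the expression table whose name ends in -AS and 1 digit and which reached 1 FPKM in at least 3 of the 6 libraries. FPKM counts sequenced fragments per kilobase of exon, scaled to a total for each library. Of 1221 such rows, 758 had a value above 0 in at least 1 library and 104 met the level rule. The 104 are part of 11363 genes tested and of 58735 gene rows. The same libraries chose them, so the fact that they are expressed is not a result.

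The 3 TGF-b1 libraries came from cells given 10 ng/ml TGF-β1 for 48 h, and the 3 control libraries from cells without it. All 6 carry the labels T24, wild-type genotype and day 2, and the cells grew with serum in the medium. The libraries were sequenced as 150 bp read pairs. Nothing in the labels says that replicates were separate cultures, so each p-value measures only the spread between these libraries.

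An antisense RNA is transcribed from the DNA strand opposite to another gene, the sense gene, whose name it takes with the suffix. Some start beside the sense gene's own start and run away from it, a head-to-head arrangement in which both transcripts can come from 1 shared promoter region. Others overlap the sense gene or lie inside one of its introns. Known antisense RNAs act in different ways, among them on the transcription, splicing or stability of their partner, while for many no function is known. The secreted cytokine TGF-β1 signals through SMAD proteins, which bind DNA, and carcinoma cells given it often take on mesenchymal traits.

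Each library held 20724863 to 23704552 assigned fragments, and the antisense RNAs themselves had a median of 101 fragments per library, with a range of 6 to 4222. The total to which the FPKM are scaled differed from the assigned fragments. It was 1.033, 1.025 and 1.002 times these in TGF-b1 libraries and 0.991, 0.963 and 1.035 times in control libraries. Without control 3, 3280 of the 11363 genes passed the test described below, against 277 with all 6 libraries, so that library stands apart, and every antisense RNA that passed without it is named below with its value. Of 14 urothelial and epithelial markers, 6 reached the level rule. KRT18 averaged 227 ± 13.4 FPKM in TGF-b1 libraries and 322 ± 55.1 FPKM in control libraries, while KRT8 averaged 188 ± 3.01 FPKM in TGF-b1 libraries and 222 ± 26.4 FPKM in control libraries (SD, n = 3 each). The defining epithelial genes EPCAM and CDH1 were near 0: EPCAM averaged 0.227 ± 0.0941 FPKM in TGF-b1 libraries and 0.221 ± 0.0579 FPKM in control libraries, and CDH1 averaged 0.0327 ± 0.00694 FPKM in TGF-b1 libraries and 0.0286 ± 0.0248 FPKM in control libraries. GATA3 and TP63 were at or below 0.0471 FPKM on average in either group, and KRT5, KRT19 and UPK3A were listed at 0. KRT7 and UPK1A also reached the level rule. KRT7 averaged 10.0 ± 1.42 FPKM in TGF-b1 libraries and 14.7 ± 3.29 FPKM in control libraries. UPK1A, given per library below, averaged 0.995 FPKM over all libraries. Keratins 8 and 18 were thus abundant and KRT7 was expressed, while EPCAM, CDH1, GATA3, TP63, KRT5, KRT19 and UPK3A were absent or nearly so. The list also holds UPK1B, UPK2 and PPARG, some of which reached the level rule too. Their values are not given here. Summed fibroblast, leukocyte and endothelial markers stayed at or below 0.745 FPKM in every library.

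The windows around the start sites are shown for 4 of the antisense RNAs, because these are the stretches of DNA from which the transcripts begin. They are the smallest unadjusted p-values among those whose RefSeq window holds at most 30 bases of an annotated UTR. Each window is 300 bases of GRCh38.p14 from RefSeq, 5′ to 3′ on the RNA's own strand, with the 250 bases before the start in lower case and the 50 transcribed bases in capitals. ASB16-AS1 runs on the minus strand (chr17:44186668-44186967) and VPS9D1-AS1 on the plus strand (chr16:89711606-89711905). SNAI3-AS1 runs on the plus strand (chr16:88663123-88663422) and PIK3CD-AS2 on the minus strand (chr1:9687525-9687824).
ASB16-AS1: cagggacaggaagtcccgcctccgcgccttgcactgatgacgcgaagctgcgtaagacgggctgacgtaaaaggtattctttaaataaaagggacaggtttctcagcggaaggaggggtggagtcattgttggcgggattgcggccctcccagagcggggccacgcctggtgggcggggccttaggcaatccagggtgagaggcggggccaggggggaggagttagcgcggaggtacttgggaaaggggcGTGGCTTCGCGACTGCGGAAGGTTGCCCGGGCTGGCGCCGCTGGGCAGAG
VPS9D1-AS1: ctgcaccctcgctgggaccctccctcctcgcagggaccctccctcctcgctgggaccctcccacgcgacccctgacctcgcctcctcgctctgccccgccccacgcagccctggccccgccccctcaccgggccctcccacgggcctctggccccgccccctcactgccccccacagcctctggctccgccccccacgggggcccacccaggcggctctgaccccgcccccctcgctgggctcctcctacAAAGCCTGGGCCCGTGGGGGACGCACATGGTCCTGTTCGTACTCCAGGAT
SNAI3-AS1: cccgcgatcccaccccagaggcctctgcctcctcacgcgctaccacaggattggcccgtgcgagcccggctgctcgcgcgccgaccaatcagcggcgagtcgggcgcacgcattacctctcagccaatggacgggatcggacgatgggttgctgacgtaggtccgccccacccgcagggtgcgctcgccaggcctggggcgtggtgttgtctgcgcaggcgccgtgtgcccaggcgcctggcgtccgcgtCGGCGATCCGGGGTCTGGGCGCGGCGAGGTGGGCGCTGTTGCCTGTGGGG
PIK3CD-AS2: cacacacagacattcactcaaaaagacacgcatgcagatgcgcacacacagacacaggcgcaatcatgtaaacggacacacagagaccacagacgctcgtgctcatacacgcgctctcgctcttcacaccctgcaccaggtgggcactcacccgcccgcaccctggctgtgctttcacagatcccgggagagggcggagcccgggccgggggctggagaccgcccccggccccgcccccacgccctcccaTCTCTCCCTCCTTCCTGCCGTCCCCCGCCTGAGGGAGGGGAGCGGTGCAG

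The 4 windows were rich in GC and in CpG, the dinucleotide that can be methylated at silent promoters. ASB16-AS1 had 24 CpG and 64.3% GC, VPS9D1-AS1 21 CpG and 75.7% GC, SNAI3-AS1 39 CpG and 72.7% GC, and PIK3CD-AS2 22 CpG and 66.0% GC. The RefSeq start lay 0 bases from the annotated gene start for ASB16-AS1 and for VPS9D1-AS1, 75 bases away for SNAI3-AS1 and 19 bases away for PIK3CD-AS2. Over the 57 antisense RNAs with a RefSeq window the median was 63.7% GC and 23 CpG, beside 58.7% and 14 over all 35116 promoter windows. The 15 of them that start head to head with the sense gene had a median of 69.7% GC and 28 CpG. Of the head-to-head pairs, 10 had a window for both genes, and in 7 of these the windows overlapped.

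Motifs were counted on both strands, and a base could belong to more than 1 motif. CAGAC, the element that SMAD proteins recognise, stood in 40.4% of the 57 windows and in 45.3% of all windows. In the windows printed above it had 2 matches for SNAI3-AS1, 3 for PIK3CD-AS2, and 0 for ASB16-AS1 and for VPS9D1-AS1. CACCTG, an E-box bound by the Snail and ZEB factors, stood in 21.1% against 20.6%, with 1 match in the PIK3CD-AS2 window. TGANTCA, the AP-1 element, stood in 5.26% against 7.71%, and TATAAA in 5.26% against 11.5%. A match in a window is a description of its letters.

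Most of the antisense RNAs were scarce. Their mean level over the 6 libraries had a median of 1.79 FPKM and a range of 0.789 to 36.8 FPKM, beside a median of 6.64 FPKM over all genes tested. A mean of 5 FPKM was reached by 14 of them, 61 lay under 2 FPKM, and the 4 most abundant held 32.1% of their summed FPKM. At 1 FPKM in every library were 71. The annotation (GENCODE 29 on GRCh38) classes 75 as antisense, 13 as lincRNA, 12 as processed transcripts, 3 as pseudogenes and 1 as protein coding. By exons they had a median of 2120.5 bp and 4 exons.

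How the fragments were counted bears on every level here. Of 180 genes whose exons lie wholly inside exons of an expressed gene on the other strand, 180 had 0 fragments in all 6 libraries. A fragment in an exon that both strands share was therefore given to neither gene. Of the -AS rows that matched 1 annotated gene, 19 were covered in this way by other genes' exons and all 19 were listed at 0, and 114 were covered over at least 50% of their exon bases, of which 0 are among the 104. Of the 104, 70 had exon bases under opposite-strand exons, 60 of them under those of the sense gene, and 18 had over 25% of their exon bases there. Their FPKM is divided by the whole exon length, so it is lower than it would be over the countable bases alone: ASB16-AS1, with 31.1% of its exon bases shared, averaged 2.08 FPKM as deposited and 3.01 over the rest. Unspliced RNA of the sense gene that covers an antisense exon inside an intron cannot be told apart from the antisense RNA in these counts.

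LRRC75A-AS1 (ENSG00000175061.17, chromosome 17, 16438822 to 16478678, plus strand), a host gene of small nucleolar RNAs also called SNHG29, was the most abundant. It had 32.2, 34.5 and 40.2 FPKM in TGF-b1 libraries, against 36.4, 40.5 and 37.2 FPKM in control libraries. Its sense gene LRRC75A had 1.04, 0.891 and 0.627 FPKM in TGF-b1 libraries and 1.17, 1.20 and 1.14 FPKM in control libraries. The antisense RNA thus overlapped between the groups (log2 change −0.10, SE 0.11, limma adjusted p = 0.57), while it exceeded its partner in every library.

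FGD5-AS1 (ENSG00000225733.5, chromosome 3, 14920347 to 14948424, minus strand) had 28.4, 32.7 and 34.6 FPKM in TGF-b1 libraries, against 25.3, 25 and 28.5 FPKM in control libraries. Its sense gene FGD5 was listed at 0 in all 6 libraries. DLGAP1-AS2 (ENSG00000262001.1, chromosome 18, 3603000 to 3608336, plus strand), inside the gene of a postsynaptic scaffold protein, had 23.8, 26.0 and 26.5 FPKM in TGF-b1 libraries and 29.9, 28.5 and 27.8 FPKM in control libraries. Its sense gene DLGAP1 stayed at or below 0.0214 FPKM. FGD5-AS1 was higher in TGF-b1 libraries in all comparisons but that of TGF-b1 1 with control 3 (0.27, SE 0.10, limma adjusted p = 0.15), and DLGAP1-AS2 was lower in each TGF-b1 library than in each control library (−0.17, SE 0.090, limma adjusted p = 0.25). Neither passed.

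NCBP2-AS2 (ENSG00000270170.1, chromosome 3, 196942623 to 196943540, plus strand) is the member annotated as protein coding, and its start lies 26 bases from that of NCBP2, a subunit of the nuclear cap-binding complex. It had 20.4, 15.8 and 16.2 FPKM in TGF-b1 libraries, against 23.5, 24.8 and 19.1 FPKM in control libraries. NCBP2 had 9.18, 9.82 and 9.38 FPKM in TGF-b1 libraries, against 9.49, 10.0 and 9.74 FPKM in control libraries. The groups of the antisense gene overlapped in that TGF-b1 1 lay above control 3 (−0.35, SE 0.13, limma adjusted p = 0.14).

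OIP5-AS1 (chromosome 15, 41283990 to 41309737, plus strand), a conserved RNA also called cyrano that binds the microRNA miR-7, had 9.61, 11.1 and 9.44 FPKM in TGF-b1 libraries and 8.46, 7.88 and 10.8 FPKM in control libraries. RNASEH1-AS1, head to head with the gene of an enzyme that cuts RNA in RNA-DNA hybrids, had 7.33, 6.57 and 6.71 FPKM in TGF-b1 libraries and 8.47, 8.96 and 6.07 FPKM in control libraries. ARRDC1-AS1, beside an arrestin-domain gene of vesicle budding, had 8.28, 6.48 and 6.35 FPKM in TGF-b1 libraries and 9.36, 7.57 and 6.51 FPKM in control libraries. The 2 groups overlapped in all 3. VPS9D1-AS1 (chromosome 16, 89711856 to 89718165, plus strand) had 6.32, 4.90 and 5.09 FPKM in TGF-b1 libraries, against 7.19, 7.08 and 6.76 FPKM in control libraries, with no overlap (−0.32, SE 0.10, limma adjusted p = 0.11). In the order of mean levels LRRC75A-AS1, FGD5-AS1, DLGAP1-AS2 and NCBP2-AS2 lead, and each overlaps its neighbour in that order across the 6 libraries. OIP5-AS1 follows, and its highest library lies below the lowest of NCBP2-AS2.

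**Figure D1:**
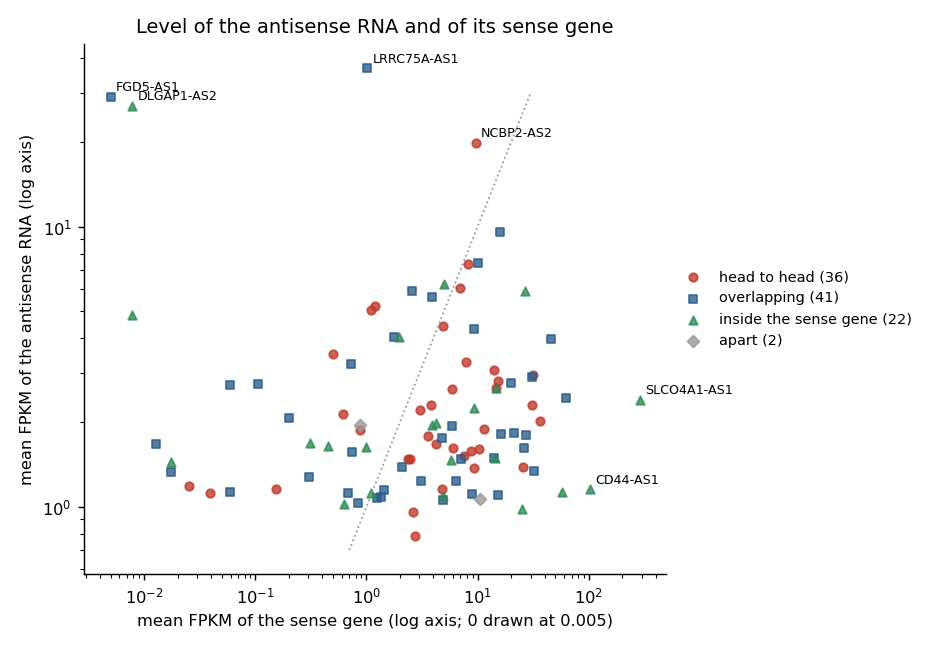
Mean FPKM over the 6 libraries of each antisense RNA (vertical log axis) against that of its sense gene (horizontal log axis, 0 drawn at 0.005), with the arrangement of the pair by colour and shape and equal levels on the dotted line. Of 101 antisense RNAs with a single sense row, 36 lie above the line, with FGD5-AS1 and DLGAP1-AS2 far to the left of it and SLCO4A1-AS1 far to the right.

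Of the 104, 101 had a single row for the sense gene in the table, and these rows were 98 distinct genes, since DLGAP1, MNX1 and PAXIP1 each have 2 antisense RNAs here. HOXB-AS4, HOXC-AS2 and RPARP-AS1 had no such row. By position, 36 start within 1000 bp of the sense gene's start and run the other way, 41 overlap it, 22 lie inside it and 2 lie apart from it. In the plot of paired levels 36 of the 101 exceeded the sense gene and 16 lay below 10% of it, and the median ratio of antisense to sense level was 0.499. Of the 36 head-to-head RNAs 9 exceeded the sense gene, of the 41 overlapping ones 16, and of the 22 inside ones 10. SLCO4A1-AS1, at a mean of 2.41 FPKM, lay farthest below a partner: SLCO4A1, an organic anion transporter, had 259, 262 and 247 FPKM in TGF-b1 libraries and 332, 333 and 286 FPKM in control libraries. CD44-AS1, at 1.15 FPKM, lies inside CD44, a hyaluronan receptor, at 102 FPKM.

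Just inside the level rule by their third-highest value were PTPRG-AS1 and PDCD4-AS1, each at 1.02 FPKM. PTPRG-AS1 had 0.790, 1.40 and 1.42 FPKM in TGF-b1 libraries and 0.884, 0.993 and 1.02 FPKM in control libraries. Just outside were HOXB-AS3 at 0.995 FPKM and TNKS2-AS1 at 0.987 FPKM. CIRBP-AS1 and RHPN1-AS1 entered through the control libraries alone, with 0 TGF-b1 libraries at 1 FPKM, so the rule favoured a difference in these 2.

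Whether TGF-β1 changed the antisense RNAs was tested with limma on log2(FPKM + 1) over all 11363 genes, with Benjamini-Hochberg adjustment and a threshold of 0.05. None of the 104 passed: 0 were called higher and 0 lower. Over all genes tested 2.44% passed, 130 higher and 147 lower. By limma's voom on the recovered fragments 0 of the 104 passed as well. In that setting more of all genes passed than the 2.44% above, and their count is given in the last section. At an unadjusted p under 0.05 stood 21 (20.2%), beside 25.1% of all genes, a share near that background. The median counting error of an antisense RNA was 9.80% of its mean fragments per library, and the part of depth in these counts was not tested. The median SE of the log2 change was 0.12 over the 104 and 0.11 over all genes tested.

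By direction, 3 of the 104 were higher at an unadjusted p under 0.05, beside 11.2% of all genes, and 18 were lower, beside 13.9%. In 6 the TGF-b1 libraries all lay above the control libraries (background 14.6%), and in 15 all lay below (background 12.5%). By sign alone 44 were higher and 60 lower. The median change was −0.04 on the log2 scale over the 104, 0.01 over all genes tested, −0.01 over 517 other long non-coding genes, of which 13 passed (2.51%), and 0.03 over 74 tested sense genes. In bulk RNA, a change in the number of cells that make an RNA and a change in the RNA per cell cannot be told apart.

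The changes ranged from −0.59 to 0.34 on the log2 scale. The 95% interval lay within a 1.5-fold change in either direction for 75 of the 104, or 72.1%, beside 82.1% of all genes, and within a 2-fold change for 103, or 99.0%, beside 96.3%. Summed over the 104, the level was 334, 340 and 348 FPKM in TGF-b1 libraries, against 366, 368 and 352 FPKM in control libraries, with no overlap. Control 3 gave the lowest of the control sums. Their summed fragments, not scaled to depth or length, did overlap. They were 23372, 27545 and 27281 in TGF-b1 libraries and 25067, 25008 and 26930 in control libraries.

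**Figure D2:**
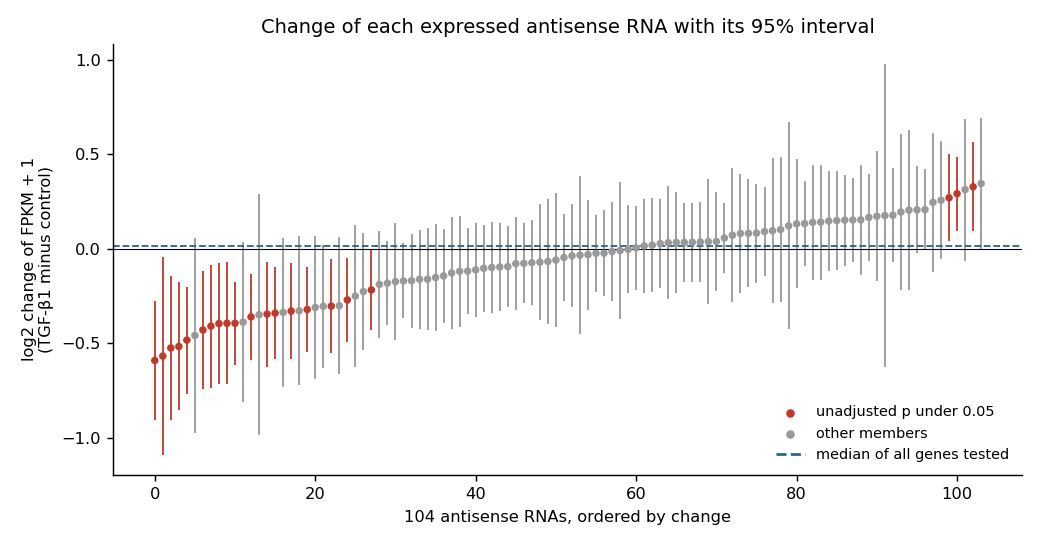
The log2 change of FPKM + 1, TGF-b1 minus control, of each of the 104 antisense RNAs (points, ordered by change) with its 95% interval (lines), red where the unadjusted p is under 0.05, and the median of all genes tested as a dashed line. The 21 red points are 18 below 0 and 3 above, and none of the 104 passed the adjusted threshold.

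GC content moved with these changes. Spearman's rho between the GC content of the transcripts and the log2 change was −0.43 over the 104 antisense RNAs and −0.63 over 11308 genes, which share the same 6 libraries and their depth. A loess trend on GC content and length was then removed from each library. This step takes out any part of a change that follows GC content or length, whatever its source. A rho near 0 after it is therefore set by the step and is not a result. The rho was then 0.08 and −0.02, and at an unadjusted p under 0.05 stood 6 higher (background 10.8%) and 7 lower (background 10.6%) of the 104. ASB16-AS1 then passed alone among them (0.48, limma adjusted p = 0.022). More of all genes passed in that setting than in the values as deposited, and both counts are given in the last section. The median change over the 104 was −0.03 after that step. Lower and higher antisense RNAs at an unadjusted p under 0.05 were thus 7 and 6 with the trend removed, against 18 and 3 in the values as deposited. Among the abundant RNAs, the change of VPS9D1-AS1 was −0.02 after that step (limma adjusted p = 0.91), against −0.32 as deposited, and that of NCBP2-AS2 was −0.06 (0.64), against −0.35. CIRBP-AS1 was at −0.29 (0.25), against −0.59, and SCAMP1-AS1 at −0.39 (0.11), against −0.48.

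**Figure D3:**
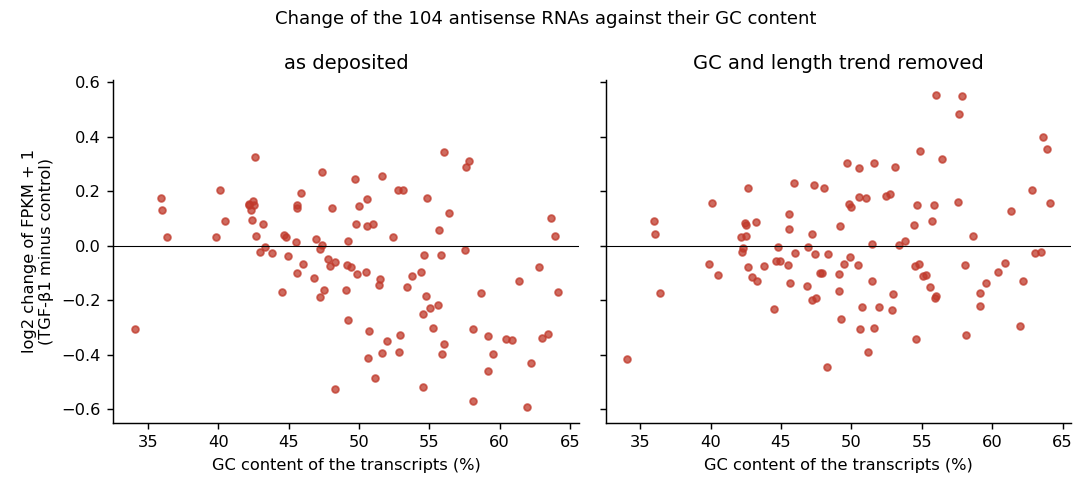
The log2 change (TGF-b1 minus control) of each of the 104 antisense RNAs against the GC content of its transcripts in percent, from the values as deposited (left) and with a trend on GC content and length removed from each library (right). The points fall with GC content on the left (Spearman's rho −0.43) and do not on the right (0.08), where the step itself removes such a trend.

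Among the RNAs that were lower in TGF-b1 libraries, CIRBP-AS1 had the largest difference. It is a 994 bp transcript (chromosome 19, 1267814 to 1270241, minus strand) inside CIRBP, the gene of a cold-inducible RNA-binding protein. It had 0.517, 0.881 and 0.593 FPKM in TGF-b1 libraries, against 1.35, 2.05 and 1.18 FPKM in control libraries. These rest on 11, 21 and 14 fragments in TGF-b1 libraries and on 30, 46 and 27 in control libraries. The groups did not overlap (−0.59, SE 0.14, limma adjusted p = 0.057; without control 3, −0.69 and 0.020). CIRBP-AS1 met the level rule through the control libraries alone, so the rule favoured this difference. CIRBP itself averaged 4.36 ± 0.371 FPKM in TGF-b1 libraries and 5.50 ± 0.259 FPKM in control libraries, also with no overlap (−0.28, SE 0.094, limma adjusted p = 0.12).

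UPK1A-AS1 (chromosome 19, 35667948 to 35673291, minus strand) lies inside UPK1A, which encodes a uroplakin of the urothelial surface. It had 1.35, 0.944 and 0.953 FPKM in TGF-b1 libraries, against 2.30, 3.11 and 1.14 FPKM in control libraries. UPK1A had 0.616, 0.549 and 1.05 FPKM in TGF-b1 libraries, against 1.70, 1.29 and 0.760 FPKM in control libraries. In both genes control 3 lay within the range of the TGF-b1 libraries, and neither passed (−0.57, SE 0.23, limma adjusted p = 0.18 for UPK1A-AS1). Without control 3, where 28.9% of all genes passed, both passed, UPK1A-AS1 at −0.83 with a limma adjusted p of 0.010 and UPK1A at −0.53 with 0.042.

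CPNE8-AS1 starts 979 bp from CPNE8, a copine that binds membranes with calcium. It had 1.07, 1.27 and 1.04 FPKM in TGF-b1 libraries, against 2.12, 2.94 and 1.32 FPKM in control libraries, on 12 to 35 fragments. The groups did not overlap (−0.53, SE 0.17, limma adjusted p = 0.12), while CPNE8 averaged 6.10 ± 0.373 FPKM in TGF-b1 libraries and 5.81 ± 0.707 FPKM in control libraries. PRKAG2-AS1 starts 83 bp from PRKAG2, a regulatory subunit of the energy sensor AMPK. It had 0.643, 1.29 and 0.941 FPKM in TGF-b1 libraries and 1.42, 2.36 and 1.64 FPKM in control libraries, with no overlap (−0.52, SE 0.15, limma adjusted p = 0.095). PRKAG2 averaged 23.6 ± 2.30 FPKM in TGF-b1 libraries and 27.5 ± 2.16 FPKM in control libraries.

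SCAMP1-AS1 (chromosome 5, 78342365 to 78360507, minus strand) starts 76 bp from SCAMP1, a membrane protein of recycling vesicles, and shares no exon base with it. It had 2.48, 2.77 and 1.95 FPKM in TGF-b1 libraries, against 4.34, 3.87 and 3.07 FPKM in control libraries. SCAMP1 had 14.2, 14.3 and 15.4 FPKM in TGF-b1 libraries, against 12.6, 12.5 and 14.7 FPKM in control libraries. The antisense RNA lay lower in each TGF-b1 library than in each control library (−0.48, SE 0.13, limma adjusted p = 0.073), and the sense gene overlapped between the groups (0.13, SE 0.095, limma adjusted p = 0.38). SLCO4A1-AS1 had 2.83, 1.30 and 1.54 FPKM in TGF-b1 libraries and 3.82, 2.19 and 2.79 FPKM in control libraries. TGF-b1 1 lay above 2 of the control libraries there (−0.46, SE 0.22, limma adjusted p = 0.23).

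SNAI3-AS1 (ENSG00000260630.6, chromosome 16, 88663298 to 88687186, plus strand) is the antisense RNA whose sense gene passed the test. SNAI3 belongs to the Snail family of zinc-finger repressors and had 1.13, 1.04 and 0.778 FPKM in TGF-b1 libraries, against 2.04, 1.71 and 1.90 FPKM in control libraries. It fell by 0.54 on the log2 scale (SE 0.11, limma adjusted p = 0.026). SNAI3-AS1 had 1.07, 0.952 and 0.685 FPKM in TGF-b1 libraries, against 1.45, 1.52 and 1.19 FPKM in control libraries. Neither gene overlapped between the groups, and the antisense RNA did not pass (−0.33, SE 0.12, limma adjusted p = 0.13). The call of SNAI3 was lost without TGF-b1 2 (adjusted p = 0.066), without TGF-b1 3 (0.10), without control 1 (0.15), without a level filter (0.24), with libraries rescaled to the same sum (0.051) and after removal of the trend on GC and length, where its change was −0.22 (0.38). All these values are from limma.

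Higher in TGF-b1 libraries by the largest difference was HOXB-AS4, in the HOXB cluster of homeobox genes on chromosome 17. It had 5.87, 4.43 and 4.34 FPKM in TGF-b1 libraries, against 4.01, 2.64 and 4.33 FPKM in control libraries. The lowest TGF-b1 library and control 3 were nearly equal (0.34, SE 0.16, limma adjusted p = 0.20). THAP9-AS1 (chromosome 4, 82893009 to 82900960, minus strand) starts 276 bp from THAP9, a gene derived from a DNA transposase. It had 4.44, 3.83 and 3.77 FPKM in TGF-b1 libraries, against 2.94, 2.63 and 3.44 FPKM in control libraries, with no overlap (0.33, SE 0.11, limma adjusted p = 0.11).

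ASB16-AS1 (ENSG00000267080.5, chromosome 17, 44175973 to 44186717, minus strand) overlaps ASB16, a gene with ankyrin repeats and a SOCS box. It had 2.47, 2.31 and 2.38 FPKM in TGF-b1 libraries, against 1.76, 1.76 and 1.78 FPKM in control libraries. The libraries of each group lay close together and the groups were apart (0.29, SE 0.089, limma adjusted p = 0.10). These values rest on 130, 136 and 139 fragments in TGF-b1 libraries and on 97, 98 and 101 in control libraries, and ASB16 stayed at or below 0.398 FPKM. Over the 14 settings in which ASB16-AS1 was tested its change lay between 0.27 and 0.48 and its limma adjusted p between 0.022 and 0.33. It passed in 2 of them: without control 3, where 28.9% of all genes passed, and after removal of the GC and length trend. The count of all genes that passed after that removal is given in the last section.

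PDCD4-AS1 starts 438 bp from PDCD4, an inhibitor of translation initiation. It had 1.14, 0.643 and 1.14 FPKM in TGF-b1 libraries, against 0.345, 1.02 and 0.445 FPKM in control libraries, on 6 to 21 fragments. PDCD4 had 2.71, 2.38 and 2.23 FPKM in TGF-b1 libraries, against 3.05, 3.17 and 2.94 FPKM in control libraries. The antisense RNA overlapped between the groups (0.31, SE 0.17, limma adjusted p = 0.26), and PDCD4 did not overlap (−0.24, SE 0.095, limma adjusted p = 0.16). EMC3-AS1, annotated as a transcribed pseudogene inside the gene of a membrane-insertion subunit of the endoplasmic reticulum, had 2.06, 1.49 and 1.58 FPKM in TGF-b1 libraries and 1.20, 0.916 and 1.74 FPKM in control libraries, with overlap (0.26, SE 0.14, limma adjusted p = 0.27).

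**Figure D4:**
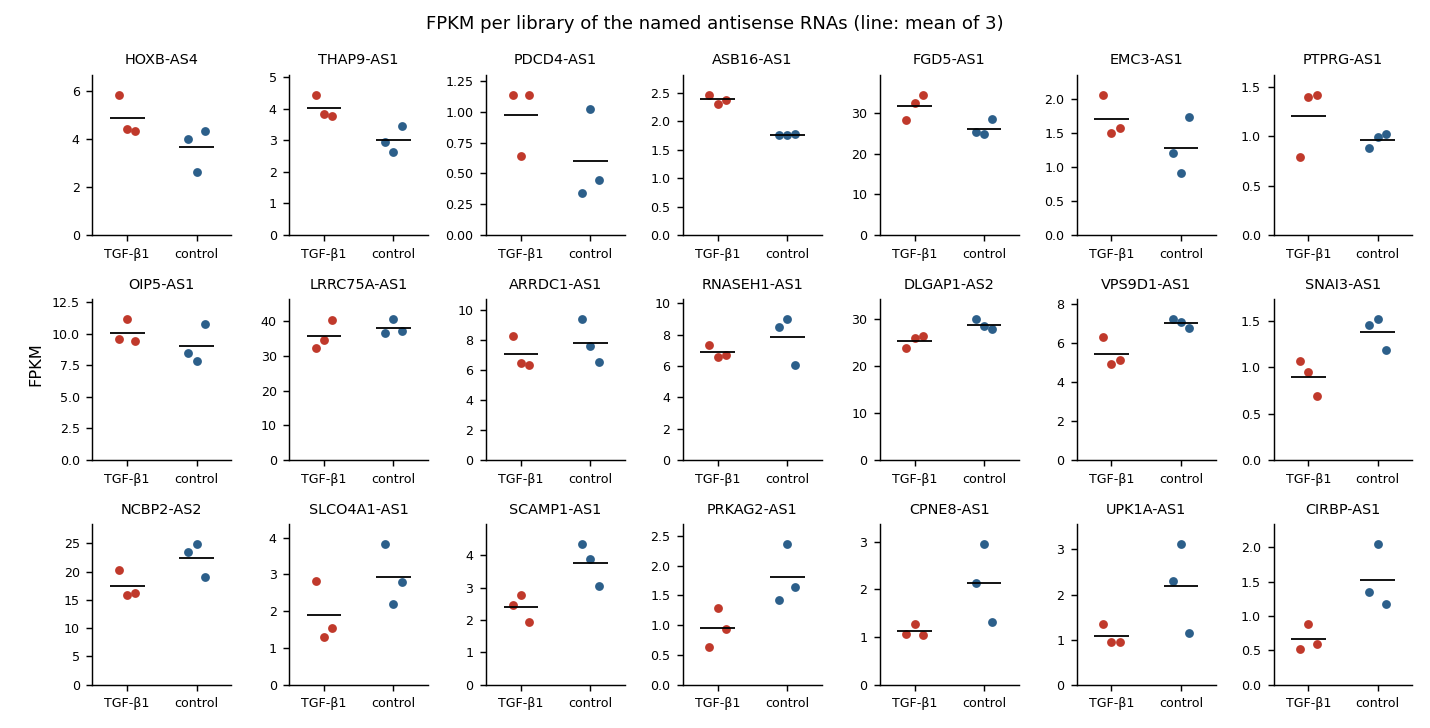
FPKM of the 21 antisense RNAs chosen by the naming rule in each TGF-b1 library (red, left) and control library (blue, right), with the mean of the 3 libraries as a line; each vertical axis starts at 0. The largest positive change, HOXB-AS4, is at the top left and the largest negative change, CIRBP-AS1, at the bottom right, and the libraries of ASB16-AS1 lie close together within each group.

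Control 3 was closer to the TGF-b1 libraries than the other control libraries in several of these RNAs, among them CPNE8-AS1, UPK1A-AS1, PIK3CD-AS2 and RNASEH1-AS1. Without it, 16 of the 104 passed (15.4%), beside 28.9% of all genes: 3 higher, beside 12.4%, and 13 lower, beside 16.5%. The 3 were ASB16-AS1 (0.29, limma adjusted p = 0.036), FGD5-AS1 (0.33, 0.040) and THAP9-AS1 (0.40, 0.022). The 13 were led by UPK1A-AS1, given above, CPNE8-AS1 (−0.72, 0.011), CIRBP-AS1 (−0.69, 0.020), PARD3-AS1 (−0.61, 0.049), SCAMP1-AS1 (−0.59, 0.016), PIK3CD-AS2 (−0.57, 0.0099) and BBOX1-AS1 (−0.52, 0.041). The rest were NCBP2-AS2 (−0.45, 0.027), HOXC-AS2 (−0.40, 0.037), SNAI3-AS1 (−0.39, 0.049), TM4SF19-AS1 (−0.38, 0.034), VPS9D1-AS1 (−0.34, 0.049) and RNASEH1-AS1 (−0.31, 0.028). Each pair gives the log2 change and then the limma adjusted p without control 3. Both shares lie below those of all genes in the same setting. With the replicate number as a term, 4 of the 104 passed, all lower, beside 6.75% of all genes. The rho between GC content and change was −0.45 over the 104 without control 3, and −0.68 over the 11308 genes. Without TGF-b1 3, PTOV1-AS2 was the one that passed (−0.60, limma adjusted p = 0.040). The share of all genes that passed in that setting is not given here, so this call has no background beside it. The last section gives the range over all libraries left out in turn.

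By arrangement, the 22 RNAs inside the sense gene had a median change of −0.18 on the log2 scale, with 6 lower and 0 higher at an unadjusted p under 0.05, where 13.9% of all genes were lower and 11.2% higher. The 36 head-to-head RNAs had −0.05, with 6 lower and 1 higher, and the 41 overlapping ones 0.03, with 5 lower and 2 higher. Their median GC contents were 53.8%, 51.1% and 49.1% in that order, and its part in the order of the medians was not tested. These arrangements were not tested against each other.

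Whether an antisense RNA moved differently from its sense gene was tested by the log-ratio of the 2 levels in each library. The test was limma over 2039 opposite-strand gene pairs of the annotation. These are all pairs that overlap or start within 1000 bp head to head and in which both genes met the level rule. Of these, 75 pairs hold one of the antisense RNAs and its own sense gene. None of the 75 passed, that is 0 pairs, beside 0.441% of all pairs. At an unadjusted p under 0.05 stood 12 of the 75 (16.0%), beside 18.9% of all pairs, and in 9 of these the antisense RNA moved below its sense gene.

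PIK3CD-AS2 showed the lowest p of the 75 (ENSG00000231789.2, chromosome 1, 9672426 to 9687555, minus strand). It lies inside PIK3CD, the catalytic delta subunit of PI3-kinase, and shares no annotated exon base with it. It had 5.07, 5.28 and 4.35 FPKM in TGF-b1 libraries, against 7.61, 7.91 and 5.07 FPKM in control libraries. PIK3CD had 30.9, 31.1 and 28.6 FPKM in TGF-b1 libraries, against 24.3, 23.5 and 23.3 FPKM in control libraries. The sense gene was higher in every TGF-b1 library than in any control library, while for the antisense RNA TGF-b1 2 lay above control 3. The change of the antisense RNA minus that of the sense gene was −0.73 (SE 0.16, 95% interval −1.09 to −0.38, limma adjusted p = 0.098). The pair passed with both genes required to reach 5 FPKM (adjusted p = 0.030, where 6.07% of 741 pairs passed) and without control 3 (0.024, where 3.97% of 2039 passed).

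The pair of ASH1L-AS1 and ASH1L, a histone methyltransferase, came next. ASH1L-AS1 had 1.12, 1.35 and 1.18 FPKM in TGF-b1 libraries, against 1.40, 2.01 and 1.83 FPKM in control libraries. ASH1L had 2.68, 2.67 and 2.70 FPKM in TGF-b1 libraries, against 2.03, 1.56 and 2.60 FPKM in control libraries. Neither gene overlapped between the groups, and they lay apart in opposite directions (difference −0.59, SE 0.16, limma adjusted p = 0.13). For SCAMP1-AS1 the difference was −0.62 (SE 0.18, limma adjusted p = 0.15), and for PDCD4-AS1 it was 0.55 (SE 0.17, limma adjusted p = 0.15). Without control 3 the pairs of SCAMP1-AS1 (0.042) and CPNE8-AS1 (0.027) passed by the same test. PIK3CD-AS2 and ASH1L-AS1 were named here after their values were seen.

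Over the 75 pairs, the changes of antisense and sense gene had Pearson's r of 0.36 and the same sign in 46 (61.3%). The 2 changes of a pair share libraries, depth and base composition. Over the 1964 other opposite-strand pairs r was 0.35, with the same sign in 66.3%. The 30 head-to-head pairs had r of 0.22 and the same sign in 12 (40.0%), and the other 45 had r of 0.47 and the same sign in 34 (75.6%). With the GC and length trend removed the same sign was found in 45 of the 75, in 20 of the 30 head-to-head pairs (66.7%) and in 25 of the other 45 (55.6%). The lower share of head-to-head pairs thus turned round with that step.

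**Figure D5:**
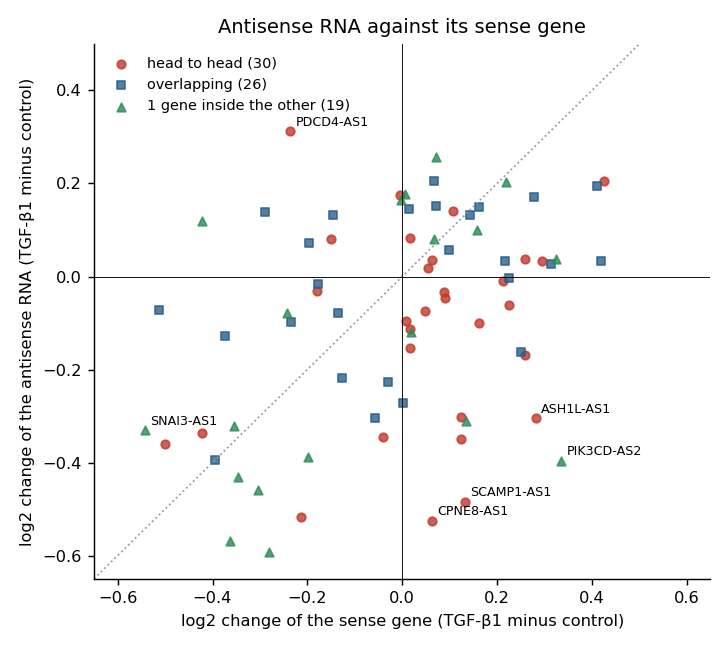
The log2 change of each antisense RNA (vertical) against that of its sense gene (horizontal), both TGF-b1 minus control, for 75 pairs: 30 head to head, 26 overlapping and 19 with 1 gene inside the other. The dotted line marks equal changes; PIK3CD-AS2, ASH1L-AS1 and SCAMP1-AS1 lie below it at the right and PDCD4-AS1 above it at the left.

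Lists of related genes were read beside these. The background for their counts is that of all genes tested, of which 2.44% passed and 25.1% had an unadjusted p under 0.05. Of 26 antisense or neighbouring RNAs that the literature ties to mesenchymal change or TGF-β, 25 had a row and 7 were tested, of which 0 passed in either direction and 1 had an unadjusted p under 0.05. Of those 7, FOXC2-AS1, FOXD3-AS1, SNAI3-AS1, MAPKAPK5-AS1, TMPO-AS1 and OIP5-AS1 are among the 104. TMPO-AS1 averaged 2.24 ± 0.337 FPKM in TGF-b1 libraries and 1.81 ± 0.112 FPKM in control libraries (SD, n = 3 each). FOXC2-AS1, opposite a forkhead factor, averaged 2.93 ± 0.474 FPKM in TGF-b1 libraries and 2.67 ± 1.36 FPKM in control libraries. The others of that list lay below the level rule, such as ZEB1-AS1, at 0.504 ± 0.145 FPKM in TGF-b1 libraries and 0.532 ± 0.143 FPKM in control libraries. HAS2-AS1 and LOXL1-AS1 were listed at 0.

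Of long non-coding RNAs without the suffix, 13 of 23 rows were tested and 1 passed, higher. That one was NKILA, an RNA induced by NF-κB that binds the NF-κB complex, at 4.51, 4.77 and 3.60 FPKM in TGF-b1 libraries, against 1.60, 1.34 and 1.45 FPKM in control libraries. It rose by 1.10 on the log2 scale (SE 0.11, limma adjusted p = 0.00051), which is beyond the range of all 104 antisense RNAs. Of 19 tested genes of the nuclear RNA exosome and its adaptors, the complex that degrades many antisense transcripts, 0 passed in either direction and 4 had an unadjusted p under 0.05. Its scaffold subunit EXOSC5 averaged 14.3 ± 0.697 FPKM in TGF-b1 libraries and 20.4 ± 4.99 FPKM in control libraries (limma adjusted p = 0.12). Its nuclease EXOSC10 averaged 23.6 ± 0.224 FPKM in TGF-b1 libraries and 20.0 ± 2.66 FPKM in control libraries (limma adjusted p = 0.19). Of 6 tested urothelial and epithelial markers 0 passed, 3 had an unadjusted p under 0.05, and the median change was −0.35 on the log2 scale.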

How the data were processed

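Alignment used HISAT2 2.0.5 and counting featureCounts 1.5.0-p3 on hg38, per the submitters' processing notes. The deposited values are FPKM per gene, per the file headers, in 1 table of 6 columns that matches the 6 files of single libraries. The sources used here name no strand setting. The 11 rows of mapping totals were left out. With GENCODE 29 exon lengths, 99.999% of the FPKM above 0 gave a fragment number no more than 0.05 from an integer. Of the rows whose symbol names more than 1 gene, 98 were assigned by these fragments, and the rest were left without an annotated gene.

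The test was limma 3.58.1 (R 4.3.3) on log2(FPKM + 1), with trend and robust estimation, over genes at 1 FPKM or more in at least 3 libraries. Such changes understate those of low genes. Pairs were fitted as log-ratios. Named were the 8 highest means, the 6 largest changes in each direction, RNAs with a sense gene past the threshold and the 2 nearest the level rule. The script was tested on simulated data. The members and lists were chosen with earlier results of these data known. voom and the loess trend (span 0.5) were added after the data were seen. FPKM, not counts, decided the test.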

Additional observations from a re-analysis of the deposited data

How the results depend on the processing

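The count of genes called (277) was 15 without a level filter, 500 at a minimum of 5 FPKM, 1058 by voom on recovered fragments and 499 with the GC content and length trend removed. Leaving out 1 library gave 124 to 3280, the highest without control 3. The count of antisense RNAs called (0) was 1 with the GC trend removed and 0 to 16 with 1 library left out. With the replicate block, the replicate number as a term, it was 4 (CIRBP-AS1, PRKAG2-AS1, SCAMP1-AS1 and SLCO4A1-AS1, all lower), among 767 of all genes (6.75%). The correlations of same-numbered deviations were 0.25, −0.07 and 0.17. Whether the replicate numbers pair the libraries was not tested. The median change of the antisense RNAs was −0.105 at a minimum of 5 FPKM, with 14 of them, and 0.0111 with libraries rescaled to the same sum, where the median of all genes was 0.08. Opposite-strand pairs called (9) were 5 at a pseudocount of 0.1, 45 at a minimum of 5 FPKM and 3 to 81 with 1 library left out. Uncalled genes changed sign as follows. NCBP2 was 0.0322 when rescaled. With 1 library left out RNASEH1 lay between −0.035 and 0.0797, below 0 without TGF-b1 1 (−0.00874) and without control 2, and EMC3 between −0.0108, without TGF-b1 3, and 0.123. With the GC trend removed ARRDC1-AS1 was 0.129, CPNE8 −0.113, OIP5-AS1 −0.023, PTPRG −0.0748, RNASEH1-AS1 0.00296 and SCAMP1 −0.0678. The causes of these moves were not tested. Of 536 values of named genes over the settings, 498 kept their sign and side of the threshold, 22 passed newly and 6, all of SNAI3, no longer passed. The scarcest RNAs rest on as few as 6 fragments in a library.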
